A study of Mus musculus with 18 samples.

Results

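The matrix metalloproteinases (Mmp), the tissue inhibitors that block them (Timp), the Adamts proteases and the enzymes that hydroxylate and crosslink collagen (P4ha, Plod, Lox and Loxl) were followed in livers of mice given carbon tetrachloride with or without an oral medicine. Members were taken by symbol alone, as every gene of the deposited table named with one of these family names and its number, which gave 57 of the 54752 genes. RNA of whole liver was sequenced from 18 male C57BL/6 mice, 1 library per mouse and 6 mice in each of 3 groups, at the end of 12 weeks of treatment. All mice were bought at 6 weeks of age. The Control group was injected into the peritoneum with corn oil, 10 µl/g at 2 injections a week, and took double distilled water by mouth daily. The Cirrhosis group took the same water and was injected on the same schedule with CCl4 (carbon tetrachloride), which is toxic to hepatocytes, at 10% in corn oil. The Cirrhosis-PTH group was injected with CCl4 like the Cirrhosis group and took PTH by mouth daily at 0.25 mg/g, drawn from a preparation of 50 mg/ml. PTH stands here for Pien Tze Huang, a remedy of Chinese medicine, and no group took PTH without CCl4. The treatment protocol describes 45 mice, 15 per group, so the libraries hold part of them. All p-values below measure the spread between mice.

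Collagen chains are hydroxylated on proline by P4ha enzymes and on lysine by Plod enzymes while they fold inside the cell. After secretion, Adamts2, Adamts3 and Adamts14 cut off the amino-terminal propeptide, and lysyl oxidases crosslink the assembled fibrils, which makes them harder to degrade. Matrix metalloproteinases are zinc proteases that cut collagens, gelatin, laminins, elastin and proteoglycans, and Timp proteins bind and block them. In fibrotic liver, activated stellate cells and portal fibroblasts are known as the main source of fibrillar collagen, of Timp1 and of lysyl oxidases, whereas macrophages are a known source of Mmp12 and Mmp13, and neutrophils of Mmp8, Mmp9 and Mmp25.

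A run of 10 metalloproteinase members lay on chromosome 9 (chr9:7272514-7699585 of GRCm38, 427.1 kb), in the order Mmp13, Mmp12, Mmp1b, Mmp3, Mmp1a, Mmp10, Mmp8, Mmp27, Mmp20 and Mmp7. Such neighbours arose by gene duplication and are related in sequence, so that they are not independent examples. The run holds Mmp3, Mmp7, Mmp8, Mmp12 and Mmp13, all present in every Cirrhosis library and at a median of at most 0.606 CPM in Control, and Mmp10, whose counts all came from Cirrhosis. For these 6 genes the 120 bases before a RefSeq start are shown from the RefSeq promoter table of GRCm38.p6, all on the plus strand of chromosome 9. Capitals mark the letters TGANTCA, where N is any base, and TATAAA, the TATA box. The first pattern includes the recognition sequence of the AP-1 transcription factors and is wider than it. The windows are chr9:7272394-7272513 for Mmp13, chr9:7347254-7347373 for Mmp12, chr9:7445702-7445821 for Mmp3, chr9:7502222-7502341 for Mmp10, chr9:7691970-7692089 for Mmp7 and chr9:7558309-7558428 for Mmp8. The Mmp12 window lies inside its annotated gene (chr9:7344381-7369499), and each other window ends before the annotated start of its gene. Mmp8 is shown as the neighbour that held neither set of letters.
Mmp13: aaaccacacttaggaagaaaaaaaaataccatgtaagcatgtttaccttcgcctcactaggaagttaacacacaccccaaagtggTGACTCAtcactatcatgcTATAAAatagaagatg
Mmp12: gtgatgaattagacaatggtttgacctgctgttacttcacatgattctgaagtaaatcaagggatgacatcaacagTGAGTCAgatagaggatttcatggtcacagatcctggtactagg
Mmp3: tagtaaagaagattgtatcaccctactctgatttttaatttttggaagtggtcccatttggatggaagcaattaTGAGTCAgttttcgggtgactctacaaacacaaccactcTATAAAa
Mmp10: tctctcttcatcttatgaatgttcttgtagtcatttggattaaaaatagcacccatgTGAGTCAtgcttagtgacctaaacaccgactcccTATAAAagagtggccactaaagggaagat
Mmp7: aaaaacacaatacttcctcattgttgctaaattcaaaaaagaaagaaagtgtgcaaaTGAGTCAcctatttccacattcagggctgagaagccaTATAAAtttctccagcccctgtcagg
Mmp8: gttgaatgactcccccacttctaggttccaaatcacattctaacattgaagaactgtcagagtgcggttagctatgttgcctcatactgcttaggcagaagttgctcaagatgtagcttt

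The promoter table matched 38 of the 57 members by symbol, with 41 promoters. Shares of members are per gene, where a match before any of its starts counts, and shares of the table are per promoter. A gene with more than 1 start thus has more chances to match. In the 250 bases before a start, on either strand, TGANTCA was found in 8 members (21.1%), and in 2217 of the 32851 promoters of the table (6.75%). All 8 belonged to the run on chromosome 9, namely Mmp1a, Mmp1b, Mmp3, Mmp7, Mmp10, Mmp12, Mmp13 and Mmp20, and the window before Mmp27 held no match, as that before Mmp8. TATAAA was found in 10 members (26.3%) against 12.4% of all promoters. Both sets of letters, which cannot overlap each other, stood together before 7 members (18.4%) and in 399 promoters (1.21%). The core letters ACGTG or GCGTG of the hypoxia response element were found in 19 members (50%) and in 38.6% of all promoters. A match describes the letters only and shows no binding. Mmp1a, Mmp1b and Mmp20 match the same 2 patterns as Mmp13, with TGAATCA in Mmp20 and TGACTCA in Mmp13. These 3 members had no count in any library.

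The libraries held between 62482144 and 112294112 counts, of which 31.4% to 60.8% fell on loci that collect ribosomal RNA reads. Summed markers of hepatocytes (Alb, Apoa1 and 4 others) reached 36320 to 54340 CPM (counts per 1000000 of the scaled library size) in Control, 23780 to 44510 CPM in Cirrhosis and 36650 to 42020 CPM in Cirrhosis-PTH, so every library held liver RNA as labelled. Some libraries stood apart in marker levels that bear on the members. Control replicate 7 had a summed level of 8 myofibroblast markers of 154 CPM, against 47.2 to 85.7 CPM in the other Control libraries. Cirrhosis replicate 2 had a summed level of 10 neutrophil markers of 158.5 CPM, against 9.79 to 17.2 CPM in the other Cirrhosis libraries. Control replicate 8 had 8.87 CPM of these neutrophil markers, against 0.179 to 1.1 CPM in the other Control libraries. Cirrhosis-PTH replicates 3 and 6 had the highest myofibroblast sums of their group, 464 and 316 CPM, against 133 to 209 CPM in the other 4. Where leaving out 1 of these libraries changed a call, or moved a called value or a share by over 1.5 times, the value without it is given beside the result.

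Most members were higher with CCl4, and many of them were lower again with PTH. Of the 47 members that passed the filter on low counts, 36 were higher in Cirrhosis than in Control, 5 were lower and 6 were not called, where called means an adjusted p under 0.05 in edgeR's quasi-likelihood test. Changes below are log2 changes ± SE from that fit, with p adjusted by Benjamini-Hochberg over all genes tested, and levels are CPM of the scaled library size in 6 mice per group. Intervals of 95% are not adjusted for the number of genes. A change with CCl4 is that of Cirrhosis against Control, and one with PTH is that of Cirrhosis-PTH against Cirrhosis unless Control is named. Over all 21914 genes tested, 50.5% were called, 25.5% as higher and 25% as lower. The median log2 change was 1.69 over the tested members and 0.015 over all genes tested. Levels of the 2 groups did not overlap in 30 members that were higher and 3 that were lower, against 15.6% and 14.7% of all genes. In whole liver, fewer cells of a type and less RNA per cell cannot be told apart, and this holds for every result below. The filter asked for about 0.12 CPM in at least 6 libraries of any group, which 37 members reached in all libraries of Control, 46 in all of Cirrhosis and 41 in all of Cirrhosis-PTH. Mmp3, Mmp8 and Mmp16 passed it only with the help of Cirrhosis libraries. The counts of called members therefore describe the tested members and not the 57.

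Cirrhosis-PTH against Cirrhosis called 25 of the 47 members as lower, 3 as higher and 19 not at all. The background was 38.6% of all genes called, 20.1% higher and 18.6% lower. The median log2 change was -0.99 over the members and -0.0032 over all genes. Levels did not overlap in 18 members that were lower and 2 that were higher, beside 11% and 11.8% of all genes. Against Control, Cirrhosis-PTH called 18 members as higher and 1 as lower, with 28 not called. Of all genes 8.82% were called in that comparison, 6.34% higher and 2.48% lower. Here the median log2 change was 0.75 over the members and 0.0055 over all genes, and levels did not overlap in 12 higher members and 1 lower member, beside 3.07% and 1.4% of all genes. The 3 comparisons share their groups of mice, so their values for a gene are set side by side below and are not independent of each other.

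**Figure D1:**
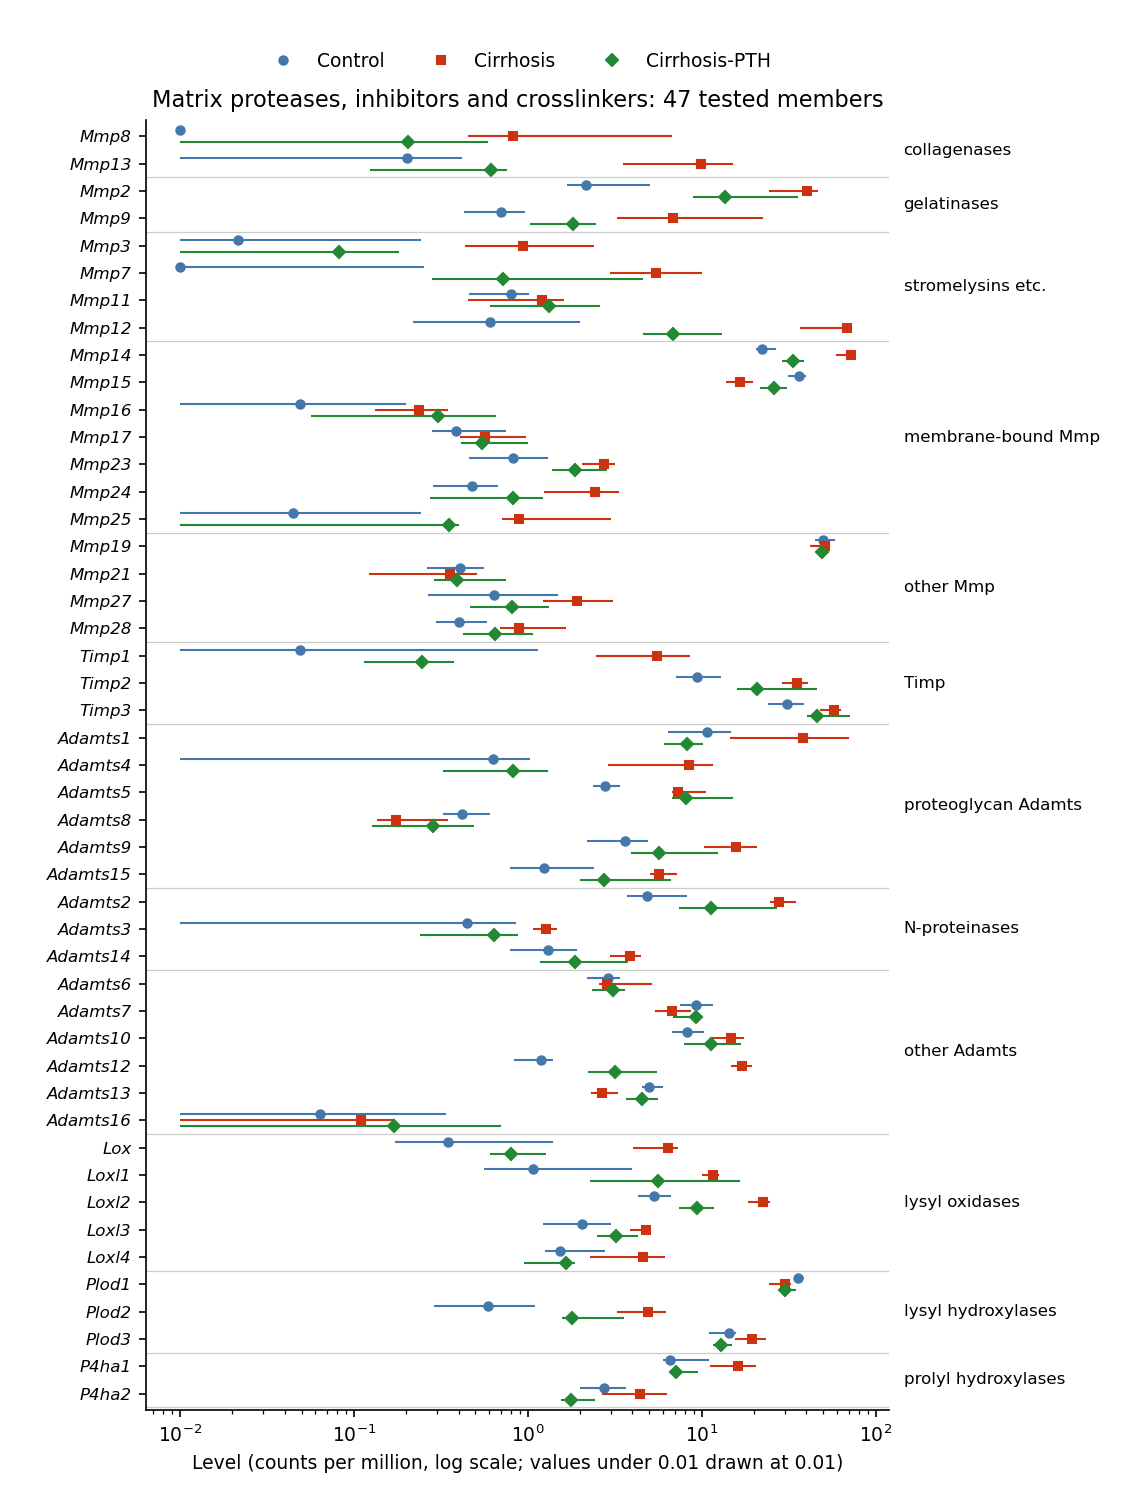
Median level (points) and range over 6 mice (lines) of the 47 tested members in Control, Cirrhosis and Cirrhosis-PTH, in CPM on a log axis, ordered by role; values under 0.01 are drawn at 0.01. Most Cirrhosis points lie to the right of the Control points, while Mmp15 and Adamts13 lie to the left and Mmp19 at the same place.

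Among the collagenases, which make the first cut in fibrillar collagen, Mmp13 was raised in every Cirrhosis library. The level of Mmp13 was 0 to 0.418 CPM in Control (median 0.202), 3.51 to 15.1 CPM in Cirrhosis (median 9.89) and 0.124 to 0.758 CPM in Cirrhosis-PTH (median 0.614). Every Cirrhosis library was above every other library, and the Cirrhosis-PTH range covered part of the Control range. The log2 change was 5.66 ± 0.59 (SE, adjusted p = 3.8e-07) in Cirrhosis against Control and -4.07 ± 0.52 (SE, adjusted p = 6.1e-06) in Cirrhosis-PTH against Cirrhosis, or 16.8-fold lower. Cirrhosis-PTH against Control gave 1.59 ± 0.59 log2 units (SE, adjusted p = 0.11), with a 95% interval of 0.43 to 2.74. Mmp8, the collagenase stored by neutrophils, had no count in any Control library, 0.452 to 6.77 CPM in Cirrhosis (median 0.821) and 0 to 0.591 CPM in Cirrhosis-PTH (median 0.205). With Control set at a floor of 3 counts over the group, Mmp8 was at least 240.4-fold higher in Cirrhosis (adjusted p = 0.00032) and at least 36.5-fold higher in Cirrhosis-PTH (adjusted p = 0.036). Without Cirrhosis replicate 2 the first of these bounds was 96.6-fold (adjusted p = 2.4e-05). These bounds cover counting error only. Mmp1a and Mmp1b, the mouse relatives of human interstitial collagenase, had no count in any of the 18 libraries.

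The highest Mmp8 level of all, 6.77 CPM, came from Cirrhosis replicate 2, the library with the high neutrophil markers, and the next Cirrhosis library stood at 1.11 CPM. Its change of -2.71 ± 0.88 log2 units in Cirrhosis-PTH against Cirrhosis (adjusted p = 0.027) was lost without Cirrhosis replicate 2 (-1.52 ± 0.65, adjusted p = 0.082), and also without Cirrhosis-PTH replicate 1, 4 or 5 (adjusted p 0.055 to 0.058). The call of Mmp8 against Control in Cirrhosis-PTH was lost without any one of Control replicates 1, 2, 3, 6 and 7 or Cirrhosis-PTH replicates 3, 5 and 6 (adjusted p 0.053 to 0.080). Both calls were also lost with no filter (adjusted p 0.055 and 0.066), and the second without Control replicates 7 and 8 together (adjusted p = 0.069). Mmp9 and Mmp25, the other members known from neutrophils, were highest in the same Cirrhosis library, at 22.4 and 3.02 CPM. Control replicate 8, the highest Control library in neutrophil markers at 8.87 CPM, had no count of Mmp8 or Mmp25. Its Mmp9, at 0.97 CPM, was the highest of Control. The part of neutrophils in these levels was not tested. Of 9 neutrophil markers tested, 8 rose with CCl4, 7 were lower with PTH and 1 was above Control with PTH. The shares of all genes were 25.5%, 18.6% and 6.34%, and a count of 1 is not set apart from such a share. Sums of the markers were 0.179 to 8.87 CPM in Control, 9.79 to 158 CPM in Cirrhosis and 1.84 to 9.06 CPM in Cirrhosis-PTH.

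**Figure D2:**
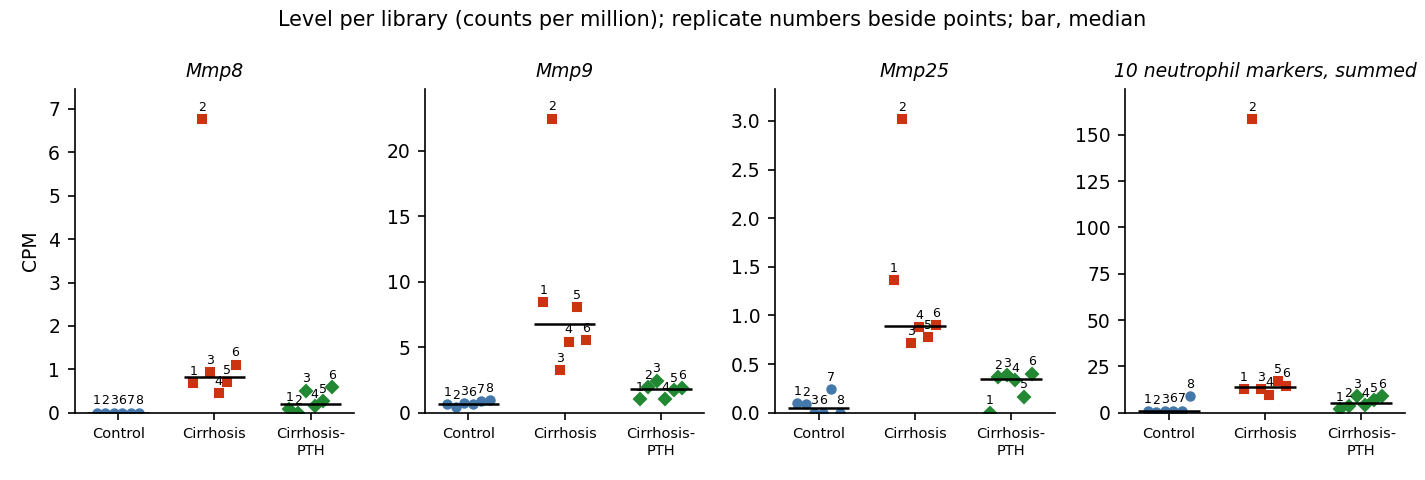
Levels of Mmp8, Mmp9 and Mmp25 and the summed level of 10 neutrophil markers in each library, in CPM, with replicate numbers beside the points and the group median as a bar. Cirrhosis replicate 2 is the highest point of every panel.

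Mmp9, the gelatinase of neutrophils and macrophages, ranged over 0.432 to 0.97 CPM in Control (median 0.704), 3.27 to 22.4 CPM in Cirrhosis (median 6.81) and 1.03 to 2.45 CPM in Cirrhosis-PTH (median 1.81). No Cirrhosis library overlapped another group, and the Cirrhosis-PTH libraries also lay above all Control libraries. Log2 changes were 3.63 ± 0.41 (SE, adjusted p = 6.7e-07) with CCl4 and -2.40 ± 0.38 (SE, adjusted p = 5.1e-05) with PTH added. Cirrhosis-PTH against Control gave 1.24 ± 0.40 log2 units (SE, adjusted p = 0.058), which passed without Cirrhosis replicate 2 (1.23 ± 0.26, adjusted p = 0.0050), Cirrhosis replicate 3 (adjusted p = 0.033) or Cirrhosis-PTH replicate 4 (adjusted p = 0.045). It was also called with all libraries by DESeq2 (1.22 ± 0.35 log2 units, adjusted p = 0.0074) and in the edgeR fit of the 12 Control and Cirrhosis-PTH libraries (1.22 ± 0.26, adjusted p = 0.0082). Mmp25, a membrane-anchored protease of neutrophils, stood at 0 to 0.242 CPM in Control (median 0.0446), 0.714 to 3.02 CPM in Cirrhosis (median 0.888) and 0 to 0.40 CPM in Cirrhosis-PTH (median 0.35). It rose by 4.2 ± 0.82 log2 units (SE, adjusted p = 0.00026), or 4.96 without Control replicate 7, and its lower level with PTH (-2.20 ± 0.69 SE, adjusted p = 0.015) was lost without Cirrhosis replicate 2 (-1.74 ± 0.70, adjusted p = 0.058).

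Mmp2, the gelatinase made by stellate cells and fibroblasts, was above Control in both CCl4 groups. Its level was 1.68 to 5.02 CPM in Control (median 2.16), 24.4 to 46.8 CPM in Cirrhosis (median 40.5) and 8.87 to 35.6 CPM in Cirrhosis-PTH (median 13.7). All Cirrhosis and Cirrhosis-PTH libraries were above all Control libraries, while 2 Cirrhosis-PTH libraries, replicates 3 and 6 at 35.6 and 28.2 CPM, lay within the Cirrhosis range. Log2 changes were 3.87 ± 0.38 (SE, adjusted p = 2.7e-07) in Cirrhosis and 2.86 ± 0.37 (SE, adjusted p = 0.00014) in Cirrhosis-PTH, both against Control. The change of -1.01 ± 0.33 log2 units in Cirrhosis-PTH against Cirrhosis (adjusted p = 0.023) missed the threshold without Cirrhosis-PTH replicate 1, 2 or 5 (-0.92 to -0.94, adjusted p 0.051 to 0.053).

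The stromelysins cut proteoglycans and laminin and can activate collagenases. Mmp3, or stromelysin-1, was at 0 to 0.242 CPM in Control (median 0.0214), 0.434 to 2.41 CPM in Cirrhosis (median 0.936) and 0 to 0.181 CPM in Cirrhosis-PTH (median 0.0822). The Cirrhosis libraries stood clear of both other groups, whose ranges overlapped. Mmp3 rose by 4.37 ± 0.81 log2 units (SE, adjusted p = 0.00014), or 5.60 without Control replicate 7, and in Cirrhosis-PTH fell by 3.70 ± 0.74 (SE, adjusted p = 0.00042). Mmp10, or stromelysin-2, had 511 counts in all, every one of them in Cirrhosis, where the 6 libraries stood at 0.389, 0.147, 0, 0.563, 2.46 and 1.09 CPM. It did not pass the filter. Set against a floor of 3 counts over the group, Mmp10 was at least 95.1-fold higher in Cirrhosis than in Control and at least 134-fold higher than in Cirrhosis-PTH, and a fit with no filter gave adjusted p = 0.018 and 0.019. Without Cirrhosis replicate 5, the highest library, the bounds of Mmp10 were 53.4-fold and 75.1-fold. Mmp11, known as stromelysin-3, was not called in any comparison, with medians of 0.795, 1.2 and 1.32 CPM.

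Macrophage elastase, Mmp12, rose in every Cirrhosis library and was between the groups with PTH. Its level was 0.22 to 2.0 CPM in Control (median 0.606), 36.7 to 73.6 CPM in Cirrhosis (median 68.8) and 4.61 to 13 CPM in Cirrhosis-PTH (median 6.82). The 3 groups did not overlap at any point, and Cirrhosis replicate 3 was the lowest of its group at 36.7 CPM. Mmp12 rose 88.7-fold with CCl4, a log2 change of 6.47 ± 0.47 (SE, adjusted p = 1.1e-08). With PTH it was 8.47-fold lower than in Cirrhosis (-3.08 ± 0.38 log2 units SE, adjusted p = 6.8e-06) and still 10.5-fold above Control (3.39 ± 0.43 SE, adjusted p = 0.00016). Summed levels of 8 markers of recruited macrophages (Trem2, Gpnmb, Cd9, Spp1, Itgax, Lgals3, Ccr2 and Cx3cr1) moved in the same order, at 25.3 to 54.9 CPM in Control, 276 to 421 CPM in Cirrhosis and 66.4 to 196 CPM in Cirrhosis-PTH. Of these markers, 8 of 8 were called higher with CCl4 and 7 of 8 lower with PTH, beside 25.5% and 18.6% of all genes. Their part in Mmp12 was not tested. The 5 Kupffer cell markers gave 127 to 223, 117 to 338 and 71.9 to 159.6 CPM, ranges that overlapped. Single markers of this list moved in opposite directions. Cd5l was called higher with CCl4, and Clec4f and Timd4 lower, beside 25.5% and 25% of all genes. With PTH, Cd5l was called lower than in Cirrhosis and Timd4 lower than in Control, beside 18.6% and 2.48% of all genes.

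Matrilysin, Mmp7, a small protease known from epithelium and injured bile ducts, was almost absent from Control. Its level was 0 to 0.254 CPM in Control (median 0), 2.97 to 9.99 CPM in Cirrhosis (median 5.49) and 0.283 to 4.58 CPM in Cirrhosis-PTH (median 0.721). Counts came from 2 Control libraries, and Cirrhosis-PTH replicates 3 and 6, at 4.58 and 3.85 CPM, reached into the Cirrhosis range while the other 4 stayed at 0.283 to 0.917 CPM. Mmp7 rose by 6.69 ± 0.96 log2 units (SE, adjusted p = 1.9e-05), or 8.22 without Control replicate 3, and was higher in Cirrhosis-PTH than in Control by 4.98 ± 0.95 (SE, adjusted p = 0.0034), or 6.51 without that library. Cirrhosis-PTH against Cirrhosis missed the threshold (-1.71 ± 0.67 log2 units SE, adjusted p = 0.053) and passed without Control replicate 3, Cirrhosis replicate 2, or Cirrhosis-PTH replicate 3 or 6 (-1.71 to -2.25, adjusted p 0.015 to 0.049). With all libraries Mmp7 also passed with DESeq2 size factors, with a stricter filter or without the ribosomal RNA loci (adjusted p 0.047 to 0.050). Summed markers of cholangiocytes, the cells of bile ducts, were 16.9 to 22.1 CPM in Control, 25.7 to 59 CPM in Cirrhosis and 16.6 to 26.5 CPM in Cirrhosis-PTH. With CCl4, 5 of 6 were called higher and 1 lower, beside 25.5% and 25% of all genes. With PTH, 1 of 6 was called lower than in Cirrhosis, beside 18.6% of all genes. The counts of 1 are not set apart from these shares. The part of these cells in Mmp7 was not tested.

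The membrane-bound metalloproteinases moved in both directions. Mmp14, the collagenase on the cell surface that also activates pro-Mmp2, was at 20.5 to 26.8 CPM in Control (median 22.3), 59.3 to 76.2 CPM in Cirrhosis (median 72.1) and 29 to 38.9 CPM in Cirrhosis-PTH (median 33.6). The groups did not overlap. Mmp14 rose by 1.59 ± 0.09 log2 units (SE, adjusted p = 3.2e-11) with CCl4, was 2.04-fold lower with PTH (-1.03 ± 0.09 SE, adjusted p = 1.6e-08) and stayed 1.48-fold above Control (0.56 ± 0.09 SE, adjusted p = 0.00029). Its relative Mmp15 went the other way. The level of Mmp15 was 31.4 to 39.8 CPM in Control (median 36.3), 13.7 to 19.7 CPM in Cirrhosis (median 16.6) and 21.7 to 31 CPM in Cirrhosis-PTH (median 26), again with no overlap between any pair of groups. Mmp15 changed with CCl4 by -1.10 ± 0.10 log2 units (SE, adjusted p = 9.3e-09), was higher with PTH than in Cirrhosis by 0.64 ± 0.10 (SE, adjusted p = 1.9e-05), and stayed below Control, with a change of -0.47 ± 0.10 (SE, adjusted p = 0.0039), the one member called lower in that comparison. Hepatocyte markers took a similar order, with median sums of 47770, 32540 and 39950 CPM in Control, Cirrhosis and Cirrhosis-PTH. Of these markers, 5 of 6 were called lower with CCl4 and 4 of 6 higher with PTH, beside 25% and 20.1% of all genes. Their part in Mmp15 was not tested.

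Mmp23 and Mmp24 are further membrane-anchored members. Mmp23 was at 0.457 to 1.3 CPM in Control (median 0.82), 2.05 to 3.17 CPM in Cirrhosis (median 2.73) and 1.39 to 2.84 CPM in Cirrhosis-PTH (median 1.87). It was above Control with CCl4 (1.70 ± 0.25 log2 units SE, adjusted p = 7.1e-06) and with PTH added (1.3 ± 0.25 SE, adjusted p = 0.0018), and the comparison of the 2 CCl4 groups gave -0.39 ± 0.23 (SE, adjusted p = 0.20). Mmp24, known from the nervous system, was at 0.286 to 0.67 CPM in Control (median 0.48), 1.23 to 3.36 CPM in Cirrhosis (median 2.43) and 0.275 to 1.22 CPM in Cirrhosis-PTH (median 0.824). It rose by 2.24 ± 0.33 log2 units (SE, adjusted p = 8.9e-06) and fell by 1.5 ± 0.32 (SE, adjusted p = 0.00068) with PTH, with no overlap with Cirrhosis in either case. Mmp16 was scarce, with medians of 0.0491, 0.236 and 0.304 CPM. Its rise with CCl4 (1.89 ± 0.70 log2 units SE, adjusted p = 0.030) was lost without Control replicate 2, 6 or 8 or Cirrhosis replicate 3 or 4 (1.61 to 1.79, adjusted p 0.051 to 0.065), and that in Cirrhosis-PTH against Control (2.26 ± 0.71 SE, adjusted p = 0.049) was lost on leaving out any one of 15 libraries (1.87 to 2.39, adjusted p 0.052 to 0.15), with no filter or with thinned counts (adjusted p 0.062 and 0.064). Without Control replicate 7 the changes of Mmp16 were larger, at 2.55 ± 0.73 log2 units in Cirrhosis (adjusted p = 0.0066) and 2.92 ± 0.73 in Cirrhosis-PTH (adjusted p = 0.017). Mmp17 had medians of 0.387, 0.569 and 0.544 CPM and was not called.

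Of the remaining metalloproteinases, Mmp19 was the most abundant per kilobase of annotated exon and was not called in any comparison. Its level was 44.6 to 58.7 CPM in Control (median 49.6), 42.1 to 53.9 CPM in Cirrhosis (median 51.1) and 46.9 to 52 CPM in Cirrhosis-PTH (median 49.5). The ranges lay on top of each other, and the log2 change was -0.04 ± 0.07 (SE, adjusted p = 0.68) with CCl4, with a 95% interval of -0.19 to 0.11, and -0.01 ± 0.07 with PTH, interval -0.16 to 0.13. In the annotation, 28.3% of the exon bases of Mmp19 are shared with genes on the opposite strand, and as no strand is stated for the counts, reads of these genes cannot be told apart. Mmp27, of the chromosome 9 run, was at 0.268 to 1.5 CPM in Control (median 0.641), 1.22 to 3.09 CPM in Cirrhosis (median 1.92) and 0.467 to 1.32 CPM in Cirrhosis-PTH (median 0.814), rose by 1.48 ± 0.36 log2 units (SE, adjusted p = 0.0015) and fell by 1.19 ± 0.34 (SE, adjusted p = 0.0085) in Cirrhosis-PTH. Mmp28, or epilysin, was at 0.298 to 0.582 CPM in Control (median 0.401), 0.69 to 1.67 CPM in Cirrhosis (median 0.885) and 0.423 to 1.07 CPM in Cirrhosis-PTH (median 0.646), rose by 1.32 ± 0.29 log2 units (SE, adjusted p = 0.00069) and was not called in either comparison of Cirrhosis-PTH. Mmp21 was not called (medians 0.407, 0.357 and 0.389 CPM), and Mmp20, the enamel protease, had no count.

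Among the inhibitors, Timp1 overlapped Control in Cirrhosis-PTH, while Timp2 and Timp3 stayed above it. Timp1, the inducible inhibitor, was at 0 to 1.15 CPM in Control (median 0.0489), 2.47 to 8.54 CPM in Cirrhosis (median 5.51) and 0.114 to 0.377 CPM in Cirrhosis-PTH (median 0.245). All 6 Cirrhosis libraries were above all others, and all 6 Cirrhosis-PTH libraries lay within the Control range, which Control replicate 7 stretched: at 1.15 CPM it stood far above the next Control library at 0.119 CPM. Timp1 rose by 4.79 ± 0.78 log2 units (SE, adjusted p = 6.6e-05), or 6.93 without Control replicate 7, and was 22.8-fold lower in Cirrhosis-PTH than in Cirrhosis (-4.51 ± 0.74 SE, adjusted p = 0.00011). Cirrhosis-PTH against Control gave 0.29 ± 0.81 log2 units (SE, adjusted p = 0.88), and passed the threshold without Control replicate 7 (2.42 ± 0.57, adjusted p = 0.012).

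Timp2, which also takes part in activating pro-Mmp2 on Mmp14, was at 7.16 to 12.8 CPM in Control (median 9.45), 29.1 to 41.1 CPM in Cirrhosis (median 35.6) and 15.9 to 45.9 CPM in Cirrhosis-PTH (median 20.9). Cirrhosis and Cirrhosis-PTH both lay wholly above Control, and Cirrhosis-PTH replicates 3 and 6 reached 45.9 and 29.8 CPM, within or above the Cirrhosis range. Timp2 rose by 1.85 ± 0.22 log2 units (SE, adjusted p = 1.9e-06) with CCl4 and was above Control with PTH by 1.37 ± 0.22 (SE, adjusted p = 0.00076). Cirrhosis-PTH against Cirrhosis was not called (-0.48 ± 0.21 log2 units SE, adjusted p = 0.088, 95% interval -0.90 to -0.06) and was called without Cirrhosis-PTH replicate 3 (-0.73 ± 0.16, adjusted p = 0.0012), and with all libraries by DESeq2 (-0.52 ± 0.20, adjusted p = 0.029). Timp3, the inhibitor bound to the matrix that also blocks Adamts proteases, was at 24 to 38.6 CPM in Control (median 30.9), 47.6 to 63.1 CPM in Cirrhosis (median 57.5) and 40.4 to 71.7 CPM in Cirrhosis-PTH (median 46.2). It rose by 0.84 ± 0.13 log2 units (SE, adjusted p = 2.4e-05), was above Control with PTH by 0.70 ± 0.13 (SE, adjusted p = 0.0021), and differed between Cirrhosis-PTH and Cirrhosis by -0.14 ± 0.13 (SE, adjusted p = 0.45), interval -0.40 to 0.12. Without Cirrhosis-PTH replicates 3 and 6 together that difference was called (-0.37 ± 0.11 log2 units, adjusted p = 0.012). Part of Timp3, 21.3% of its exon bases, is shared with Syn3 on the opposite strand. Timp4 had 94 counts in all and was not tested.

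**Figure D3:**
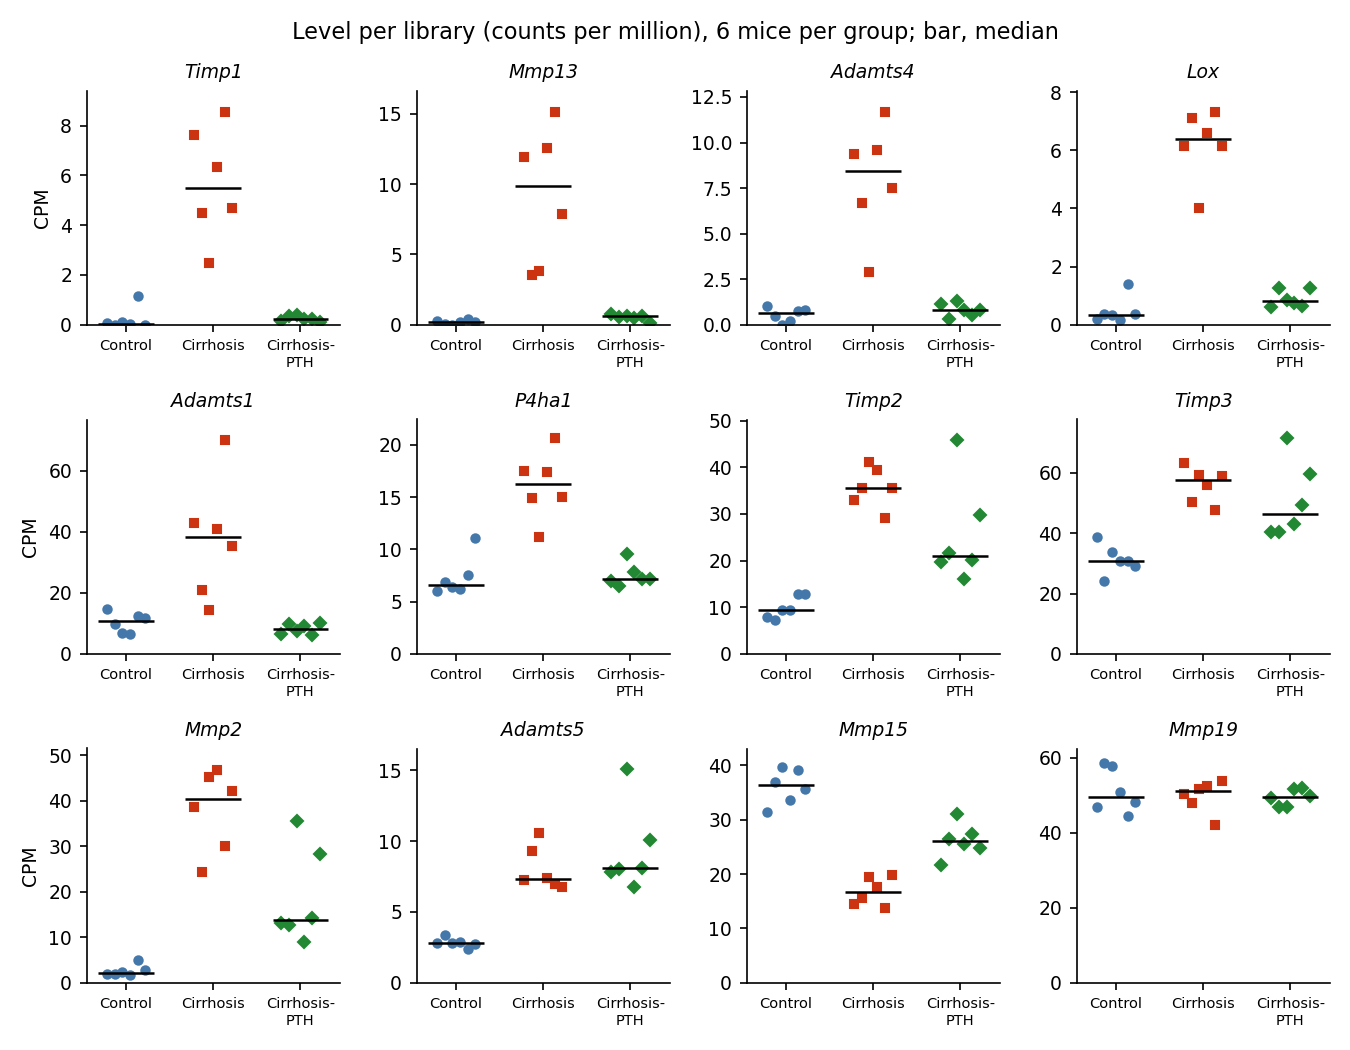
Level of 12 members in each library, in CPM on linear axes that start at 0, with the group median as a bar (6 mice per group). On these axes Timp1, Mmp13, Adamts4, Lox, Adamts1 and P4ha1 of Cirrhosis-PTH lie near Control, and Timp2, Timp3, Mmp2 and Adamts5 lie above it. Mmp15 lies between the groups and Mmp19 is level. Without Control replicate 7, Timp1 and Lox of Cirrhosis-PTH were called above Control.

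Levels were also set per kilobase of exon, to compare genes of unlike length. The length is that of all annotated exons merged, used in liver or not, so ranks, shares and ratios depend on the gene models. For Mmp12 it is 7237 bases, against 1801 for its neighbour Mmp3 and 2673 for Mmp13. A shorter transcript would give Mmp12 a higher level per kilobase. The summed metalloproteinases had 25.1 to 29.6 CPM per kb in Control (median 28.2), 57.5 to 70.4 in Cirrhosis (median 67.2) and 30.9 to 46.8 in Cirrhosis-PTH (median 33.3), with no overlap. Summed inhibitors had 4.79 to 8.37 CPM per kb in Control (median 6.77), 20.4 to 24.9 in Cirrhosis (median 22.3) and 9.67 to 21.0 in Cirrhosis-PTH (median 11.2). The ratio of the 2 sums was 3.38 to 6.01 in Control (median 4.15), 2.79 to 3.15 in Cirrhosis (median 2.88) and 2.23 to 3.21 in Cirrhosis-PTH (median 2.97). Both CCl4 groups thus lay below Control in this ratio and overlapped each other. It is a ratio of RNA levels that rests on these lengths, and it holds nothing on activity.

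The shares of single members in both sums differed between the groups. Mmp19 led the metalloproteinases per kilobase of annotated exon in every group. It held 52.3% of the sum in Control, 21.4% of that in Cirrhosis and 38.6% of that in Cirrhosis-PTH. In Control, Mmp15 (24.1%) and Mmp14 (14.0%) followed. In Cirrhosis, Mmp14 (17.8%), Mmp2 (17.1%), Mmp12 (13.5%) and Mmp7 (8.33%) came next, and in Cirrhosis-PTH it was Mmp14 (15.9%), Mmp2 (15.4%) and Mmp15 (13.4%). In Cirrhosis the neighbours Mmp14 and Mmp2, at 11.7 ± 1.03 and 11.2 ± 2.64 CPM per kb (SD, n = 6), lay within each other's spread. Before division by length, the Cirrhosis medians of Mmp14 and Mmp12, 72.1 and 68.8 CPM, were above that of Mmp19, 51.1 CPM. Timp1 made up 3.85% of the inhibitor sum in Control, 28.6% of it in Cirrhosis and 2.16% of it in Cirrhosis-PTH. The Control share rested on Control replicate 7 and was 0.774% without it, below that of Cirrhosis-PTH.

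The proteoglycan-cleaving Adamts proteases cut versican and aggrecan. Adamts1 was at 6.44 to 14.7 CPM in Control (median 10.8), 14.5 to 69.9 CPM in Cirrhosis (median 38.2) and 6.04 to 10.2 CPM in Cirrhosis-PTH (median 8.28). All Cirrhosis-PTH libraries were below all Cirrhosis libraries and within the Control range or just under it, and the lowest Cirrhosis library lay just under the highest Control library. Adamts1 rose by 1.86 ± 0.32 log2 units (SE, adjusted p = 0.00012), fell by 2.19 ± 0.32 (SE, adjusted p = 3.9e-05) with PTH, and gave -0.33 ± 0.32 in Cirrhosis-PTH against Control, interval -0.95 to 0.29. Adamts4, an inducible aggrecanase, was at 0 to 1.03 CPM in Control (median 0.631), 2.9 to 11.7 CPM in Cirrhosis (median 8.46) and 0.326 to 1.31 CPM in Cirrhosis-PTH (median 0.827). Cirrhosis again stood apart from both other groups. Adamts4 rose by 3.89 ± 0.56 log2 units (SE, adjusted p = 1.7e-05) and was 9.58-fold lower with PTH (-3.26 ± 0.53 SE, adjusted p = 9.1e-05), while Cirrhosis-PTH against Control gave 0.63 ± 0.55, interval -0.44 to 1.70.

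Adamts5, the other aggrecanase, was above Control with and without PTH. Its level was 2.38 to 3.38 CPM in Control (median 2.77), 6.77 to 10.6 CPM in Cirrhosis (median 7.31) and 6.76 to 15.1 CPM in Cirrhosis-PTH (median 8.09). Both CCl4 groups lay wholly above Control and overlapped each other. Adamts5 rose by 1.51 ± 0.17 log2 units (SE, adjusted p = 2.3e-07) in Cirrhosis and by 1.72 ± 0.17 (SE, adjusted p = 4.6e-06) in Cirrhosis-PTH, both against Control, and the difference between these groups was 0.21 ± 0.16 (SE, adjusted p = 0.33), interval -0.11 to 0.53. Adamts1 and Adamts5 are neighbours on chromosome 16, in GRCm38 at chr16:85793827-85803113 and chr16:85856173-85901828.

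Adamts9, a large secreted protease, was at 2.18 to 4.91 CPM in Control (median 3.63), 10.3 to 20.7 CPM in Cirrhosis (median 15.7) and 3.9 to 12.5 CPM in Cirrhosis-PTH (median 5.7). It rose by 2.15 ± 0.26 log2 units (SE, adjusted p = 1.5e-06) and fell by 1.25 ± 0.25 (SE, adjusted p = 0.00052) with PTH. Its remaining rise over Control with PTH (0.90 ± 0.26 log2 units SE, adjusted p = 0.034) was lost without Control replicate 2, 3, 6 or 7 or Cirrhosis-PTH replicate 3 or 6 (0.61 to 0.91, adjusted p 0.056 to 0.080), with no filter and in the fit of the 12 libraries compared (adjusted p 0.051 and 0.053). Adamts15 was at 0.789 to 2.4 CPM in Control (median 1.24), 5.06 to 7.17 CPM in Cirrhosis (median 5.71) and 2.0 to 6.65 CPM in Cirrhosis-PTH (median 2.76), rose by 2.02 ± 0.31 log2 units (SE, adjusted p = 1.6e-05) and was above Control with PTH by 1.34 ± 0.30 (SE, adjusted p = 0.0079). Against Cirrhosis, Adamts15 gave -0.68 ± 0.29 log2 units (SE, adjusted p = 0.070) and was called as lower without Cirrhosis-PTH replicate 3 (-0.94 ± 0.27, adjusted p = 0.0094) or 6 (-0.84 ± 0.30, adjusted p = 0.031), and with all libraries by DESeq2 (adjusted p = 0.031). Adamts8 was scarce and lower with CCl4 (-1.13 ± 0.36 log2 units SE, adjusted p = 0.012), with medians of 0.416, 0.175 and 0.284 CPM. Adamts20 had 4 counts, all in 1 Cirrhosis library.

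All 3 procollagen N-proteinases rose with CCl4. Adamts2, the main enzyme for type I procollagen, was at 3.72 to 8.2 CPM in Control (median 4.82), 24.7 to 35 CPM in Cirrhosis (median 27.7) and 7.38 to 27.3 CPM in Cirrhosis-PTH (median 11.3). Only Cirrhosis-PTH replicate 3, at 27.3 CPM, lay within the Cirrhosis range. Adamts2 rose by 2.33 ± 0.29 log2 units (SE, adjusted p = 3.9e-06), with PTH fell by 0.99 ± 0.28 (SE, adjusted p = 0.0089) and remained above Control by 1.34 ± 0.29 (SE, adjusted p = 0.0070). Adamts14 was at 0.789 to 1.91 CPM in Control (median 1.3), 2.97 to 4.49 CPM in Cirrhosis (median 3.85) and 1.18 to 3.75 CPM in Cirrhosis-PTH (median 1.86), rose by 1.55 ± 0.26 log2 units (SE, adjusted p = 4.2e-05) and with PTH fell by 0.76 ± 0.25 (SE, adjusted p = 0.021), a call lost without Cirrhosis-PTH replicate 1 or 5 (-0.66 to -0.68, adjusted p 0.052 to 0.056). Its difference from Control with PTH (0.79 ± 0.26 log2 units SE, adjusted p = 0.061) passed without Control replicate 8 or Cirrhosis-PTH replicate 4 or 5 (0.89 to 0.95, adjusted p 0.021 to 0.042), without Control replicates 7 and 8 together (adjusted p = 0.034), and with all libraries by DESeq2 (adjusted p = 0.028). Adamts3, which also processes a lymphatic growth factor, was at 0 to 0.859 CPM in Control (median 0.45), 1.07 to 1.47 CPM in Cirrhosis (median 1.28) and 0.241 to 0.881 CPM in Cirrhosis-PTH (median 0.636) and rose by 1.69 ± 0.50 log2 units (SE, adjusted p = 0.0081). Its Cirrhosis-PTH and Cirrhosis levels did not overlap, yet the test gave -1.04 ± 0.48 log2 units (SE, adjusted p = 0.092), and it passed without Control replicate 2 (-1.04 ± 0.32, adjusted p = 0.014). Adamts3 was also called as lower in the fit of the 12 libraries compared (-1.07 ± 0.26 log2 units, adjusted p = 0.0037) and by DESeq2 (-1.08 ± 0.46, adjusted p = 0.047).

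Adamts12, of the remaining Adamts members, is a secreted protease of connective tissue. Its level was 0.833 to 1.39 CPM in Control (median 1.19), 14.7 to 19.6 CPM in Cirrhosis (median 17.1) and 2.23 to 5.54 CPM in Cirrhosis-PTH (median 3.17). The 3 groups did not overlap. Adamts12 rose 14.7-fold (3.88 ± 0.20 log2 units SE, adjusted p = 9.7e-12), was 4.83-fold lower with PTH (-2.27 ± 0.18 SE, adjusted p = 7.6e-09) and stayed 3.05-fold above Control (1.61 ± 0.19 SE, adjusted p = 1.6e-05). Adamts13, which cuts von Willebrand factor and is made by stellate cells, was at 4.56 to 6.01 CPM in Control (median 4.96), 2.29 to 3.31 CPM in Cirrhosis (median 2.67) and 3.65 to 5.58 CPM in Cirrhosis-PTH (median 4.54). It fell by 0.87 ± 0.13 log2 units (SE, adjusted p = 1.1e-05) with CCl4, and was higher with PTH than in Cirrhosis, by 0.72 ± 0.13 (SE, adjusted p = 0.00014), where Cirrhosis overlapped neither of the other groups. Against Control, Adamts13 in Cirrhosis-PTH gave -0.15 ± 0.13 log2 units, interval -0.41 to 0.10.

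Adamts7, which cuts a cartilage protein, was at 7.46 to 11.6 CPM in Control (median 9.28), 5.37 to 8.65 CPM in Cirrhosis (median 6.73) and 6.8 to 9.76 CPM in Cirrhosis-PTH (median 9.29). It was lower with CCl4 (-0.48 ± 0.13 log2 units SE, adjusted p = 0.0042), a call lost without Control replicates 7 and 8 together (-0.29 ± 0.13, adjusted p = 0.087). Its higher level with PTH (0.38 ± 0.13 log2 units SE, adjusted p = 0.025) was lost without Cirrhosis replicate 1 or 5 or Cirrhosis-PTH replicate 1, 3 or 4 (0.32 to 0.35, adjusted p 0.052 to 0.070). Adamts10, a protein of microfibrils, was at 6.71 to 10.3 CPM in Control (median 8.19), 11.5 to 17.5 CPM in Cirrhosis (median 14.8) and 7.89 to 16.9 CPM in Cirrhosis-PTH (median 11.3) and rose by 0.81 ± 0.16 log2 units (SE, adjusted p = 0.00031). Cirrhosis-PTH gave -0.30 ± 0.16 log2 units (SE, adjusted p = 0.16) against Cirrhosis, called without Cirrhosis-PTH replicate 3 (-0.43 ± 0.15, adjusted p = 0.028), and 0.51 ± 0.16 (SE, adjusted p = 0.055) against Control, called without Control replicate 1 or Cirrhosis-PTH replicate 2 or 4 (0.59 to 0.60, adjusted p 0.018 to 0.036), and with all libraries by DESeq2 or without the ribosomal RNA loci (adjusted p 0.025 and 0.048). Adamts6 and Adamts16 were not called, with medians of 2.91, 2.85 and 3.07 CPM and 0.0634, 0.11 and 0.169 CPM. Adamts17, with 97 counts, and Adamts18, with 11 counts, were not tested, and Adamts19 had no count.

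All 5 lysyl oxidases rose with CCl4. Lox was at 0.172 to 1.39 CPM in Control (median 0.349), 4.0 to 7.31 CPM in Cirrhosis (median 6.38) and 0.604 to 1.28 CPM in Cirrhosis-PTH (median 0.802). Cirrhosis overlapped no other library, and Control replicate 7, at 1.39 CPM, was above every Cirrhosis-PTH library. Lox rose by 3.77 ± 0.39 log2 units (SE, adjusted p = 1.4e-07), or 4.45 without Control replicate 7, and was 6.89-fold lower with PTH (-2.79 ± 0.36 SE, adjusted p = 4.2e-06). Cirrhosis-PTH against Control gave 0.99 ± 0.38 log2 units (SE, adjusted p = 0.12), and passed the threshold without Control replicate 7 (1.66 ± 0.26, adjusted p = 0.00046) and without Control replicates 7 and 8 together (1.77 ± 0.29, adjusted p = 0.00065). Loxl1, known from elastic fibres, was at 0.558 to 3.96 CPM in Control (median 1.07), 10.0 to 12.6 CPM in Cirrhosis (median 11.6) and 2.29 to 16.6 CPM in Cirrhosis-PTH (median 5.59). Its rise of 2.81 ± 0.49 log2 units (SE, adjusted p = 0.00013) was still called against Control with PTH (2.07 ± 0.48 SE, adjusted p = 0.012), and Cirrhosis-PTH replicate 3, at 16.6 CPM, was the highest library of all. The call against Control was lost in the fit of the 12 libraries compared (2.06 ± 0.58 log2 units, adjusted p = 0.055). Against Cirrhosis, Loxl1 gave -0.74 ± 0.44 log2 units (SE, adjusted p = 0.21), and passed the threshold without that library (-1.23 ± 0.39, adjusted p = 0.020).

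Loxl2, the crosslinker of type IV and fibrillar collagen that has been a drug target in liver fibrosis, was at 4.28 to 6.65 CPM in Control (median 5.3), 18.5 to 24.9 CPM in Cirrhosis (median 22.5) and 7.37 to 11.7 CPM in Cirrhosis-PTH (median 9.38). The 3 groups did not overlap. Loxl2 rose by 2.06 ± 0.13 log2 units (SE, adjusted p = 1.2e-10), with PTH fell by 1.23 ± 0.12 (SE, adjusted p = 1.3e-07) and stayed above Control by 0.83 ± 0.13 (SE, adjusted p = 0.00026). Loxl3 was at 1.22 to 2.99 CPM in Control (median 2.05), 3.89 to 5.12 CPM in Cirrhosis (median 4.76) and 2.51 to 4.32 CPM in Cirrhosis-PTH (median 3.23) and rose by 1.18 ± 0.18 log2 units (SE, adjusted p = 1.6e-05). Its lower level with PTH (-0.46 ± 0.18 log2 units SE, adjusted p = 0.045) lay close to the threshold and was lost on leaving out any one of 10 libraries (-0.41 to -0.49, adjusted p 0.051 to 0.10), with no filter or with thinned counts (adjusted p 0.057 and 0.054), and its level above Control (0.72 ± 0.18 SE, adjusted p = 0.017) was lost without Cirrhosis-PTH replicate 3 (0.63 ± 0.19, adjusted p = 0.051). Loxl4 was at 1.25 to 2.77 CPM in Control (median 1.54), 2.28 to 6.15 CPM in Cirrhosis (median 4.58) and 0.95 to 1.88 CPM in Cirrhosis-PTH (median 1.66), rose by 1.42 ± 0.24 log2 units (SE, adjusted p = 3.7e-05) and with PTH fell by 1.54 ± 0.24 (SE, adjusted p = 2.1e-05). Against Control, Loxl4 in Cirrhosis-PTH gave -0.12 ± 0.24 log2 units, interval -0.59 to 0.35.

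The lysyl hydroxylases differed among themselves. Plod2, which hydroxylates the ends of collagen chains and so sets the kind of crosslink, was at 0.288 to 1.1 CPM in Control (median 0.588), 3.25 to 6.25 CPM in Cirrhosis (median 4.91) and 1.57 to 3.57 CPM in Cirrhosis-PTH (median 1.79). It rose 7.18-fold (2.84 ± 0.28 log2 units SE, adjusted p = 4.0e-08), with PTH fell by 1.17 ± 0.26 (SE, adjusted p = 0.00093) and stayed above Control by 1.67 ± 0.28 (SE, adjusted p = 0.00052). Plod3, which also adds sugars to hydroxylysine, was at 11 to 15.7 CPM in Control (median 14.3), 15.5 to 23.4 CPM in Cirrhosis (median 19.5) and 11.7 to 14.9 CPM in Cirrhosis-PTH (median 12.9), rose by 0.48 ± 0.10 log2 units (SE, adjusted p = 0.00039) and with PTH fell by 0.58 ± 0.10 (SE, adjusted p = 7.7e-05). Plod1, the most abundant of the 3 per kilobase in Control, was at 34.1 to 38.6 CPM in Control (median 35.8), 24.4 to 32.7 CPM in Cirrhosis (median 30.1) and 29.4 to 34.8 CPM in Cirrhosis-PTH (median 30.1). It fell by 0.31 ± 0.07 log2 units (SE, adjusted p = 0.0012) with CCl4. Cirrhosis-PTH gave 0.10 ± 0.07 log2 units against Cirrhosis and -0.22 ± 0.07 (SE, adjusted p = 0.070) against Control, the latter called without Cirrhosis-PTH replicate 6 (-0.25 ± 0.07, adjusted p = 0.0495) or in the fit of the 12 libraries compared (adjusted p = 0.037).

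The prolyl 4-hydroxylases P4ha1 and P4ha2, the catalytic subunits that stabilise the triple helix, rose with CCl4, and with PTH their levels overlapped Control. P4ha1 was at 6.01 to 11.1 CPM in Control (median 6.6), 11.1 to 20.6 CPM in Cirrhosis (median 16.2) and 6.53 to 9.53 CPM in Cirrhosis-PTH (median 7.14). Cirrhosis overlapped neither Cirrhosis-PTH nor Control. P4ha1 rose by 1.14 ± 0.15 log2 units (SE, adjusted p = 2.1e-06), with PTH fell by 1.10 ± 0.15 (SE, adjusted p = 5.5e-06) and gave 0.05 ± 0.15 in Cirrhosis-PTH against Control, interval -0.25 to 0.34. P4ha2 was at 2.0 to 3.65 CPM in Control (median 2.75), 2.69 to 6.28 CPM in Cirrhosis (median 4.42) and 1.55 to 2.42 CPM in Cirrhosis-PTH (median 1.77), rose by 0.67 ± 0.21 log2 units (SE, adjusted p = 0.0096) and with PTH fell by 1.24 ± 0.21 (SE, adjusted p = 5.4e-05). Its change against Control, -0.57 ± 0.21 log2 units (SE, adjusted p = 0.095), missed the threshold. P4ha3 had 64 counts and was not tested.

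The Cirrhosis-PTH mice were not alike. Replicates 3 and 6 were the 2 highest libraries of their group in 22 of the 47 tested members (46.8%), and in 2916 of the 21914 genes tested (13.3%). Mmp7 showed the widest gap, with 4.58 and 3.85 CPM against at most 0.917 CPM in the other 4, and Mmp2, Adamts2, Adamts15 and Adamts14 followed the same order. For Mmp13, Lox, Timp1, Adamts1 and P4ha1 that pair did not hold both highest levels, and Mmp13 and Timp1 were lowest of all in replicate 6, at 0.124 and 0.114 CPM. Replicates 3 and 6 were also the 2 highest in 8 of 8 recruited macrophage markers, 6 of 8 myofibroblast markers and 9 of 10 fibril and elastic fibre genes. The same held for 6 of 7 Adamts-like genes, 8 of 10 substrates, 4 of 6 cholangiocyte and 5 of 9 neutrophil markers. It held for 3 of 6 mesothelial, 4 of 9 quiescent stellate cell and 1 of 7 lymphocyte markers, and for none of 6 hepatocyte, 6 endothelial and 5 Kupffer cell markers. Loci that collect ribosomal RNA reads held 38.4% and 31.4% of their counts, and 37.9% to 48.8% in the other 4. The part of these values in the members' levels was not tested.

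Without replicates 3 and 6, an alternative chosen after the values were seen, Cirrhosis-PTH against Cirrhosis called 32 of 48 tested members as lower and 3 as higher. The background in that fit was 18.3% of 22644 genes called lower and 18.9% higher. Among the 47 members tested with all libraries, 31 were lower in place of 25. Timp2 (-0.88 ± 0.15 log2 units, adjusted p = 0.00012), Mmp7 (-3.38 ± 0.59, adjusted p = 0.00027) and Loxl1 (-1.32 ± 0.43, adjusted p = 0.025) were among the 7 then called, with Timp3, Mmp23, Adamts10 and Adamts15, and Mmp27 was then lost (-0.95 ± 0.38, adjusted p = 0.055). Mmp10, with counts in Cirrhosis only, passed the filter in that fit, where the smallest group held 4 libraries in place of 6. It was called as lower (adjusted p = 0.021). As Mmp10 passed only through the group where it was high, its call adds nothing to the count of 31. Against Control, 12 members were then called as higher in place of 18. Adamts9, Adamts15, Loxl1, Loxl3, Mmp8 and Mmp16 were those lost, while 2.81% of all genes were called higher and 0.927% lower, 847 genes in place of 1932. That fit holds 4 mice in place of 6.

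**Figure D4:**
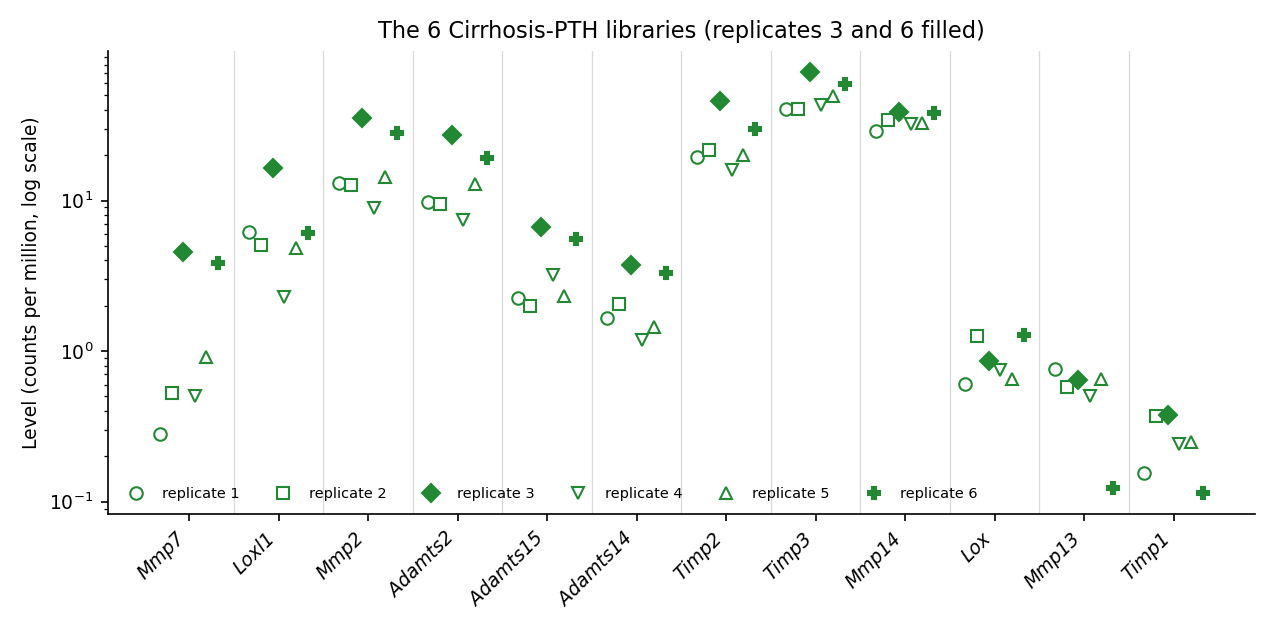
Level of 12 members in the 6 Cirrhosis-PTH libraries, in CPM on a log axis, with 1 symbol per replicate and replicates 3 and 6 filled. The filled symbols are the 2 highest for Mmp7, Mmp2, Adamts2, Adamts15, Adamts14, Timp2, Timp3 and Mmp14, but not for Loxl1, Lox, Mmp13 and Timp1.

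Genes that act with the members were taken from lists of the same pathways. Their counts are to be read beside the shares of all genes tested. These were 25.5% higher and 25% lower with CCl4, 20.1% and 18.6% with PTH, and 6.34% and 2.48% with PTH against Control. The plasminogen system activates several pro-metalloproteinases, and 4 of its 8 genes rose with CCl4, 2 fell and 2 were not called. Plat, tissue plasminogen activator, had medians of 0.167, 17.4 and 1.83 CPM in the 3 groups, in the order Control, Cirrhosis, Cirrhosis-PTH, with log2 changes of 6.05 ± 0.52 (adjusted p = 5.2e-08) and, with PTH against Cirrhosis, -2.71 ± 0.41 (adjusted p = 5.1e-05). Plaur, the urokinase receptor, had medians of 0.635, 9.21 and 0.951 CPM and changes of 3.81 ± 0.38 log2 units and -3.38 ± 0.36. Plg, plasminogen itself, and Serpinf2, its inhibitor, are made by hepatocytes and went the other way, with changes of -1.01 ± 0.11 log2 units and -0.77 ± 0.12 in Cirrhosis and 0.90 ± 0.11 and 0.66 ± 0.12 with PTH. In Cirrhosis-PTH against Cirrhosis, 5 genes of this list were lower and 2 higher. The median log2 change over the list was 1.23 with CCl4 and -1.41 with PTH, beside medians near 0 over all genes tested, as given above.

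Among 9 tested regulators of metalloproteinases outside the Timp family, 6 fell with CCl4 and none rose, and with PTH 5 were higher than in Cirrhosis, with median log2 changes of -0.36 and 0.35. Furin, the convertase that activates membrane-bound members, changed by -0.48 ± 0.07 log2 units and 0.35 ± 0.07 in these comparisons, and Pcsk6 by -0.62 ± 0.10 and 0.55 ± 0.10. Of 8 tested Adam and meprin genes, 6 rose, 1 fell and 1 was not called, and 7 were lower with PTH, with median log2 changes of 1.22 and -1.12. Adam8, a protease of leukocytes, had medians of 0.469, 28.3 and 3.11 CPM and changed by 6.06 ± 0.27 log2 units and -3.18 ± 0.23, and Adam12 by 3.37 ± 0.27 and -1.59 ± 0.24. Adam9 was the one that fell (-0.19 ± 0.08 log2 units, adjusted p = 0.046).

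The Adamts-like proteins resemble Adamts but lack a protease domain. Of 7 such genes, 3 rose with CCl4 and 1 fell, beside 25.5% and 25% of all genes. With PTH 1 was higher and none lower than in Cirrhosis, beside 20.1% and 18.6%. A list of 7 is too short to set such counts apart from these shares. The median log2 changes were 0.33 and -0.09. Adamtsl1 rose by 1.97 ± 0.28 log2 units and changed by -0.09 ± 0.26 with PTH (adjusted p = 0.83), and Papln changed by -0.90 ± 0.21 with CCl4 and was higher with PTH by 1.26 ± 0.21. Of 6 lysosomal cathepsins, 5 rose and 5 were lower with PTH, among them Ctsd (1.04 ± 0.08 log2 units and -0.66 ± 0.08) and Ctss (1.94 ± 0.15 and -0.94 ± 0.14). Over the 6, the median log2 changes were 0.83 and -0.55.

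Procollagen folding and processing genes were split. Of 17 tested, 10 rose with CCl4, 3 fell and 4 were not called, and with PTH 10 were lower than in Cirrhosis and 2 higher, with median log2 changes of 0.73 and -0.51. P3h1, a prolyl 3-hydroxylase, changed by 1.27 ± 0.11 log2 units and -1.18 ± 0.11, and Serpinh1, the collagen chaperone HSP47, by 2.03 ± 0.19 and -1.49 ± 0.19. Bmp1, the C-proteinase that also activates Lox, fell (-0.46 ± 0.08 log2 units), as did Mia3 (-0.41 ± 0.08) and Colgalt2 (-2.0 ± 0.53). Against Control, 1 gene of this list was higher with PTH and 1 lower.

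All 10 fibril and elastic fibre genes rose with CCl4, 7 were lower with PTH and 8 were still above Control, with median log2 changes of 1.57, -0.91 and 0.92. Emilin1 changed by 2.01 ± 0.14 log2 units, -1.15 ± 0.13 and, against Control, 0.86 ± 0.13, and Fbn1, fibrillin-1, by 2.41 ± 0.16, -1.14 ± 0.16 and 1.27 ± 0.16. Of 10 tested substrates of the members, 9 rose, 9 were lower with PTH and 8 were above Control with PTH, with median log2 changes of 2.69, -1.56 and 0.85. Col4a1, of basement membrane, had medians of 36.3, 184 and 51.6 CPM and changed by 2.33 ± 0.12 log2 units and -1.67 ± 0.12, and Col4a2 by 2.06 ± 0.12 and -1.42 ± 0.12. Versican, Vcan, was singled out after its values were seen: its medians were 0.179, 14.6 and 0.419 CPM, with changes of 5.54 ± 0.79 log2 units (adjusted p = 2.0e-05) and -4.50 ± 0.72 (adjusted p = 9.4e-05) and 1.03 ± 0.79 (adjusted p = 0.48) against Control.

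Cell markers moved with the groups to unlike degrees, most plainly those of myofibroblasts among the lists of this paragraph. Of 8 myofibroblast markers, 8 rose with CCl4, 8 were lower with PTH and 4 were above Control with PTH. The shares of all genes were 25.5%, 18.6% and 6.34%. Summed levels of these markers were 47.2 to 154 CPM in Control, 586 to 945 CPM in Cirrhosis and 133 to 464 CPM in Cirrhosis-PTH. Col1a1, Col1a2 and Col3a1 stand both among these markers and among the substrates. Of 9 markers of quiescent stellate cells, 4 rose and 2 fell with CCl4, beside 25.5% and 25% of all genes. With PTH, 5 of these markers were lower and 1 higher than in Cirrhosis, beside 18.6% and 20.1% of all genes. The 9 markers summed to 266 to 315, 279.5 to 335 and 244 to 301 CPM, ranges that overlapped. Endothelial markers gave 229 to 257, 213 to 252 and 226 to 255 CPM, and lymphocyte markers 2.85 to 6.42, 6.12 to 9.49 and 5.01 to 8.45 CPM. Mesothelial markers, from the cells that cover the liver, had higher sums with PTH, at 1.92 to 9.09, 5.22 to 17 and 9.21 to 43.1 CPM. With PTH, 4 of 6 were above Cirrhosis and 5 of 6 above Control, beside 20.1% and 6.34% of all genes. Among markers of neighbouring tissue, the 5 of adipocytes summed to 2.11 to 3.79 CPM in Control, 4.4 to 13.8 CPM in Cirrhosis and 1.8 to 3.63 CPM in Cirrhosis-PTH. The 1 adipocyte marker that was tested was called higher with CCl4 (log2 change 1.84) and lower with PTH (-2.0). Lep of adipocytes and Amy2b of pancreas had no count in any library. Adipoq of adipocytes had no count in Control or Cirrhosis, and Retn had none in Control. Cirrhosis replicate 2 was the highest for pancreas and striated muscle, at 8.75 and 3.62 CPM. The part of any of these cells in the members' changes was not tested.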

How the data were processed

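RNA of whole liver from 18 mice was sequenced; ribosomal RNA had been removed first, per the labels. The authors deposited 1 table of whole-number counts per gene for all libraries, with no normalization. The submitters' processing notes name GRCm38, HISAT2 2.2.1, StringTie 2.1.5, cutadapt 4.2, Trim Galore, Bowtie 1.3.1 and Bowtie2 without their roles, and strand, annotation release and filters are not given in the sources used here. In GRCm38 gene models 18 of the 57 members share exon bases with another gene, and reads of such genes cannot be told apart without strand. Libraries with 31.4% to 60.8% of counts on ribosomal RNA loci have fewer counts left for other genes, which limits scarce members.

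The 18 libraries were fitted in 1 model with edgeR 4.0.16 (R 4.3.3): filterByExpr kept 21914 of 54752 genes (18354 had no count), TMM scaled the libraries, and a robust quasi-likelihood F-test with Benjamini-Hochberg adjustment over all genes tested gave p-values, called at 0.05. The SE of a change is its size divided by the square root of F. Levels are CPM of the scaled library size, computed here, and per kilobase they are divided by the summed exon length. Python 3.11.15, pandas 2.3.3, numpy 2.4.6 and matplotlib 3.10.9 made summaries and figures. The code was tested on simulated data with known changes. Promoter sequences are RefSeq's, GRCm38.p6.

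Members called in any comparison are named with their levels, and of each pathway list the 2 genes of smallest p with CCl4 and those that moved against the list. The members and all lists were chosen with earlier results of these data known. Alternatives were DESeq2 1.42.0, its size factors, other filters, fits of 12 libraries, a replicate block, thinned counts, ribosomal RNA loci left out, and leaving out libraries. Same-numbered libraries did not deviate together (correlations -0.0644 to 0.0512). Protein sequences were not used here.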

Additional observations from a re-analysis of the deposited data

Results flagged for a closer look

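Of 140 groups of 6 libraries, each holding 1 member in 1 group, 18 had a highest or lowest library far from the other 5, and chance alone flags about 1 in 20 groups. In Control replicate 7 these were Timp1 at 1.15 CPM, Lox at 1.39 CPM, Mmp2 at 5.02 CPM and Mmp3 at 0.242 CPM, the library with the highest myofibroblast markers of its group. In the other Control libraries they were Mmp7 at 0.254 CPM in replicate 3, Adamts13 at 6.01 CPM in replicate 1, and Loxl4 at 2.77 CPM and P4ha1 at 11.1 CPM in replicate 8. In Cirrhosis replicate 2, the library with the high neutrophil markers, they were Mmp8 at 6.77 CPM, Mmp9 at 22.4 CPM, Mmp25 at 3.02 CPM and Adamts6 at 5.21 CPM. Cirrhosis replicate 3 was low for Lox at 4.0 CPM and for Mmp12 at 36.7 CPM. In Cirrhosis-PTH, replicate 3 was high for Loxl1 at 16.6 CPM, Adamts9 at 12.5 CPM and Plod2 at 3.57 CPM, and replicate 6 for P4ha2 at 2.42 CPM.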

How the results depend on the processing

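Over 28 other settings no named member or count changed its direction while called. Of the member values, 1139 of the Cirrhosis against Control comparison kept their side of the threshold and 9 lost it. In Cirrhosis-PTH against Cirrhosis 1091 kept it, 30 lost and 27 gained a call, and in Cirrhosis-PTH against Control 1076 kept it, 46 lost and 23 gained a call. With the replicate block, members called lower in Cirrhosis numbered 3 in place of 5, and the counts of genes called were 9526, 8219 and 1354 in the 3 comparisons in place of 11073, 8464 and 1932. Under the block Adamts7, Adamts8 and P4ha2 were not called with CCl4, Mmp8 was called in neither comparison of Cirrhosis-PTH, and Mmp16 and Adamts9 were not called in Cirrhosis-PTH against Control. Mmp7, Timp2 and Adamts15 were then called against Cirrhosis, and Lox and Mmp28 against Control. The cause was not tested. In Cirrhosis-PTH against Control, members called lower numbered 2 in place of 1 in the fit of 12 libraries, and 847 genes were called without Cirrhosis-PTH replicates 3 and 6 together, where 4 mice stand for 6. Leaving out 1 library at a time gave, for Cirrhosis against Control, 10385 to 11142 genes called with 35 to 37 members higher and 5 lower. For Cirrhosis-PTH against Cirrhosis it gave 7724 to 8604 genes with 2 to 3 members higher and 22 to 31 lower, and for Cirrhosis-PTH against Control 1293 to 2009 genes with 14 to 21 members higher and 1 to 2 lower. The planned description of protein motifs was not run. Depth limits Mmp3, Mmp8, Mmp10, Mmp16, Mmp25 and Adamts16, whose levels lie near that of a few counts in part of the libraries, and a level of 0 there is not an absence.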

Other observations

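Per kilobase of exon, the order of the Adamts members differed between the groups. In Control, Adamts1 (1.95 ± 0.61 CPM per kb, SD, n = 6) and Adamts7 (1.49 ± 0.25) were first and lay within their spread. In Cirrhosis, Adamts1 (7.06 ± 3.67) was followed by Adamts2 (3.06 ± 0.38) and Adamts10 (1.75 ± 0.29). In Cirrhosis-PTH, Adamts1 (1.54 ± 0.34), Adamts2 (1.53 ± 0.81), Adamts10 (1.42 ± 0.39) and Adamts7 (1.39 ± 0.19) were within each other's spread.

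Among the enzymes of hydroxylation and crosslinking, Plod1 held 40.4% of the summed level per kilobase in Control, followed by Plod3 with 23.4%. In Cirrhosis, Plod1 (17.1%), Plod3 (17.1%), Loxl2 (16.4%), P4ha1 (15.6%) and Loxl1 (13.9%) held nearly equal shares. In Cirrhosis-PTH, Plod1 led again with 30.4%, and Loxl2 held 11.6%.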
